A study of Mus musculus with 8 samples.

Results

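The genes described here are the Wnt ligands, their receptors and the regulators of the Wnt pathway in mammary tumours grown from cells with reduced miR-21 activity. They were chosen by symbol: every gene named Wnt, Fzd or Sfrp with a number, and a list of co-receptors, inhibitors and downstream factors (Lrp5, Lrp6, Dkk1 to Dkk3, Notum, Wif1, Rnf43, Znrf3, Lgr4, Lgr5, Axin1, Axin2, Ctnnb1, Apc, Nkd1, Nkd2, Cdk14, Lef1, Tcf7, Tcf7l1 and Tcf7l2). The rule found 56 genes among the 27179 in the table of counts. It used symbols and no measured value, but it was written with earlier results of these tumours known, among them the large change of Cdk14. Among the 56 is Fzd10os, a non-coding RNA gene next to Fzd10 that came in by its name alone.

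RNA sequencing was performed on 8 whole primary tumours. The vector control group (VC) held 4 tumours of 4T1.13-VC cells, and the knockdown group (miR-21-KD) held 4 of 4T1.13-miR-21-KD cells. 4T1.13 is a highly metastatic murine mammary carcinoma line, and both groups were grown orthotopically in BALB/c mice from 100000 cells injected into a mammary fat pad. Both lines carried a lentiviral vector with an mCherry reporter and hygromycin resistance. In miR-21-KD cells its H1 promoter drove a sequestering RNA against mature miR-21, and in VC cells a scrambled RNA. The labels place the tumours at day 14. The published text gives an earlier day, and it is that day which it ties to the start of regression in miR-21-KD tumours. Each line was a single pool of clones, so that a difference between the pools and the effect of the knockdown cannot be told apart. Host cells kept their own miR-21 and are part of each sample, and in such bulk tissue fewer cells of a type and less RNA per cell cannot be told apart.

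Wnt proteins are secreted lipid-modified ligands. In the canonical branch a ligand bridges a Frizzled receptor and Lrp5 or Lrp6, which holds off the Axin and APC destruction complex, and the beta-catenin that is spared then works with TCF/LEF factors on target genes. Other ligands, such as Wnt5a, act mainly through Frizzled and Ror receptors without beta-catenin, and secreted inhibitors and ubiquitin ligases limit both branches. In the mammary gland Wnt signals are known for ductal branching and for the upkeep of basal progenitors, and mouse Wnt1 was found as an oncogene activated by a mammary tumour virus.

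Between 12134849 and 13592695 reads were counted on genes in VC tumours, and between 12550898 and 12783800 in miR-21-KD tumours. A count of 0 allows up to 3 counts, or 0.221 to 0.245 CPM (counts scaled to a common library size, with the TMM factor of the tumour applied), which covers counting error only. The mature microRNA was not measured in these libraries, since Mir21a had 0 counts in all 8 tumours, and sequestration need not lower its level in any case. A low count filter kept 14382 genes for testing. All 8 tumours were separate samples, no pair within a group was alike within sampling noise, and none was left out.

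The microRNA that the vector sequesters was mmu-miR-21a-5p, which RefSeq (GRCm38.p6) places at chr11:86584120-86584141 on the minus strand. It is shown, with its seed (bases 2 to 8) in capitals, because a message with the complement of that seed, ATAAGCT, is the simplest kind of candidate target.
mmu-miR-21a-5p: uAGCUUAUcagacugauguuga
Of the 55 member genes with an annotated 3′ UTR (GENCODE vM21, longest per gene), 4 held this heptamer, which is 7.27%. Among the 44 members that were tested the share was 9.09%, against 8.16% of 13351 tested genes with a 3′ UTR, so that the match was about as frequent among Wnt genes as elsewhere. The matches are printed with the heptamer in capitals, 5′ to 3′ on the sense strand, to show which members carry it.
Dkk2: gctagaacaaaactcATAAGCTa
Nkd2: aaaacaccaatgaacATAAGCTt
Tcf7: aaccagctgctgttcATAAGCTg
Fzd3, first match: gaacacttaagatacATAAGCTc
Fzd3, second match: gattttcaagcttttATAAGCTg
These lay at base 1863 of 2184 in the Dkk2 3′ UTR (gene at chr3:132085266-132180304), base 1620 of 2426 in Nkd2 (chr13:73818534-73847631), base 720 of 1512 in Tcf7 (chr11:52246527-52283383) and bases 8923 and 8964 of 10270 in Fzd3 (chr14:65192441-65262463). Of these 4 genes, Dkk2 alone passed the test below, and a match is no evidence of binding.

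Wnt genes changed in both directions, and ligands, receptors and inhibitors all held genes that rose and genes that fell. Of the 56 genes, 44 had enough counts to be tested, and 23 of them (52.3%) passed at 0.05 after adjustment in the quasi-likelihood test of edgeR with Benjamini-Hochberg adjustment over all tested genes. The background was 39.1% of all tested genes. By direction 13 members (29.5%) were higher in miR-21-KD tumours, against a background of 19.6%, and 10 (22.7%) were lower, against 19.5%, which is close to the background. With the replicate number as a block 20 (45.5%) were higher and 10 (22.7%) lower, where the background was 45.1% of genes in all, 23% higher and 22.1% lower, and without VC replicate 3 the members were 5 (11.4%) higher and 10 (22.7%) lower, where it was 20.1%, 9.9% and 10.2%. At stricter thresholds the falls were the larger number. At an adjusted p of 0.01, 2 members (4.55%) were higher and 7 (15.9%) lower, where the background was 9.92% of genes in all, 4.66% higher and 5.26% lower. In a test for a change above 1.5-fold 2 (4.55%) were higher and 6 (13.6%) lower, where the background was 3.77%, 2.32% and 1.45%. The median log2 fold change was 0.52 over the 44 members and -0.014 over all tested genes. In 20 members the groups did not overlap, with 8 higher and 12 lower in the knockdown, where the background was 35.2% of genes in all, 16.3% higher and 18.9% lower. The filter keeps genes that reach the minimum in 4 of the 8 tumours, of whichever group, so that these counts describe the members that passed and not all members.

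**Figure D1:**
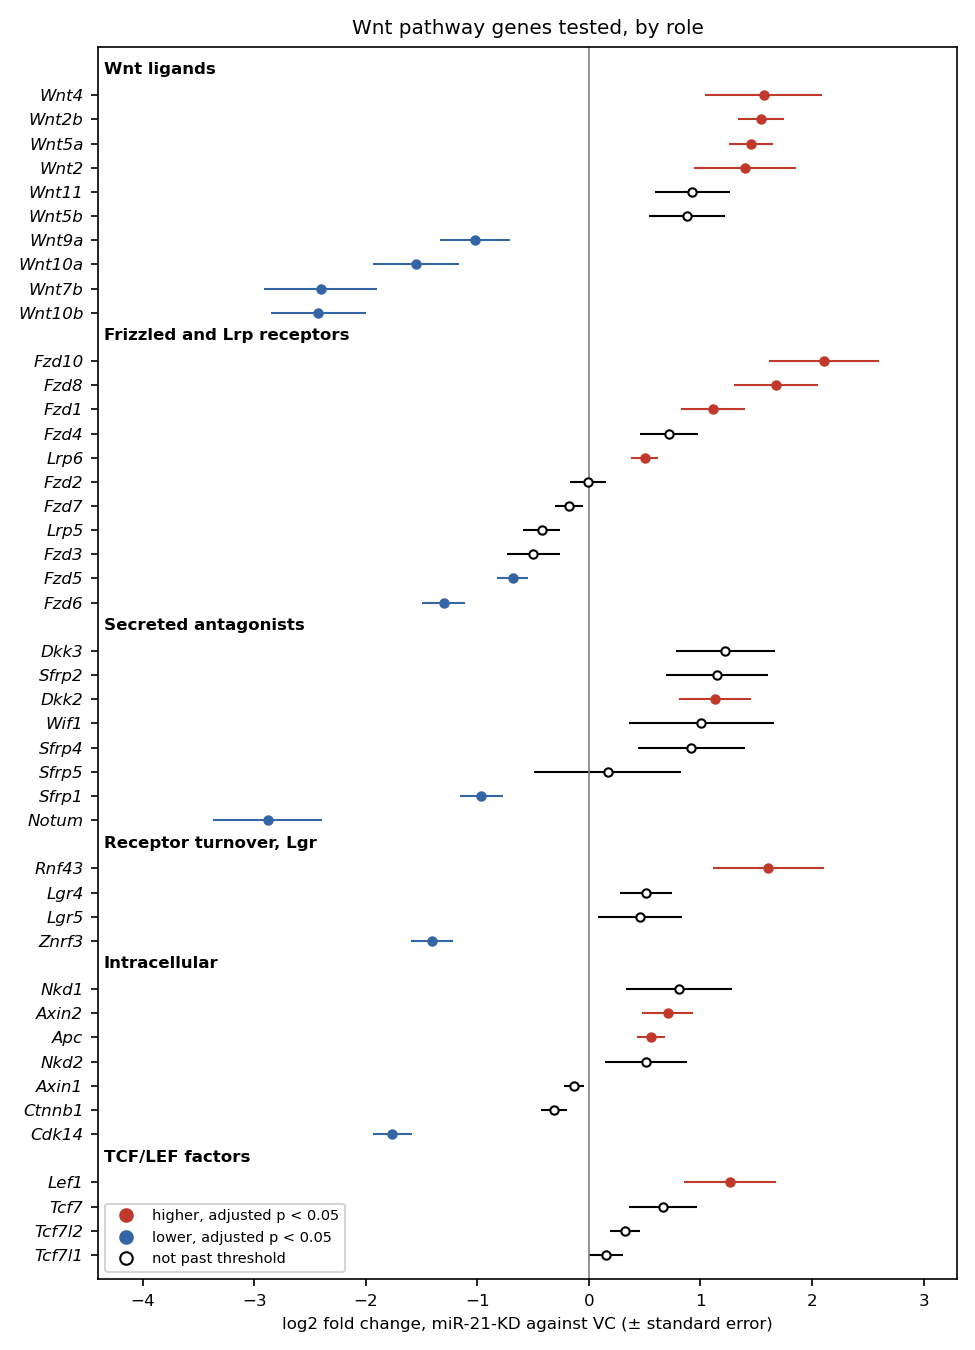
Log2 fold change (x axis) of the 44 tested Wnt pathway genes, grouped by role, with miR-21-KD against VC tumours and bars of 1 standard error; red is higher and blue lower past an adjusted p of 0.05, and open circles did not pass. The 13 red genes are spread over all roles, while the largest fall is that of Notum at -2.88.

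The most abundant Wnt ligand transcript of VC tumours was among those that fell. Wnt7b (Entrez 22422, chr15:85535437-85581821, GRCm38.p6), a canonical ligand of branching epithelia, stood at 249, 463, 399 and 309 CPM in VC replicates 1 to 4 and at 17.5, 121, 77.8 and 52.3 CPM in miR-21-KD replicates 1 to 4. The groups were well apart, although the miR-21-KD tumours differed widely among themselves. The means were 355 ± 94.6 and 67.0 ± 43.4 CPM (SD, n = 4 each). The log2 fold change was -2.40 ± 0.50 (± its standard error, here and below), with an adjusted p of 0.0105.

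Wnt10a and Wnt10b, a pair of related canonical ligands with known parts in mammary and skin appendage development, fell as well. Wnt10b had 6.27, 7.74, 7.41 and 6.46 CPM in the VC tumours, a narrow range, and 0.323, 2.20, 1.30 and 1.33 CPM in the miR-21-KD tumours (log2 fold change -2.42 ± 0.43, adjusted p = 0.00699). Wnt10a had 14.6, 17.2, 25.2 and 8.42 CPM against 2.99, 8.41, 5.84 and 5.09 CPM (-1.55 ± 0.39, adjusted p = 0.0165). The lowest VC tumour and the highest miR-21-KD tumour thus nearly met for Wnt10a, and stayed far apart for Wnt10b. Wnt9a, a ligand known from joint and liver development, had 5.09, 7.82, 4.89 and 10.5 CPM in VC and 4.61, 2.36, 3.65 and 3.29 CPM in miR-21-KD tumours (-1.02 ± 0.31, adjusted p = 0.0312). Its groups did not overlap, but the call was lost with the replicate number as a block (adjusted p = 0.0564), without VC replicate 2 or 4 (0.0753 and 0.0615) and without miR-21-KD replicate 2, 3 or 4 (0.0517, 0.0664 and 0.0779). Over all alternatives its adjusted p ran from 0.00992 to 0.208.

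Another set of ligands rose. Wnt5a, the best known ligand of the beta-catenin independent branch, had 11.9, 8.06, 10.1 and 6.95 CPM in VC tumours and 32.1, 22.9, 23.0 and 23.2 CPM in miR-21-KD tumours (log2 fold change 1.45 ± 0.20, adjusted p = 0.00520). Wnt2b, a canonical ligand of mesenchymal tissues, went from 4.20, 3.11, 4.65 and 3.11 CPM to 13.1, 11.8, 9.09 and 10.0 CPM (1.54 ± 0.21, adjusted p = 0.00501). Both rises were clear of the spread in either group, and both calls held under every alternative tried. The span of Wnt2b overlaps St7l by 4524 bp, and strand use in counting was not stated. St7l had a log2 fold change of -0.27 (adjusted p = 0.0514), and whether the pair shares reads was not tested.

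Wnt4 and Wnt2 rose with less certainty. Wnt4, which acts downstream of progesterone in mammary side branching, had 9.96, 1.60, 5.60 and 3.11 CPM in VC tumours and 14.9, 9.20, 12.2 and 24.0 CPM in miR-21-KD tumours (1.57 ± 0.52, adjusted p = 0.0433). Wnt2, a ligand made by fibroblasts and endothelium in several organs, had 3.32, 1.76, 1.42 and 3.92 CPM against 8.24, 2.83, 10.4 and 6.03 CPM (1.40 ± 0.46, adjusted p = 0.0402). In both genes the lowest miR-21-KD tumour, replicate 2, lay below the highest VC tumour. The Wnt4 call was lost without VC replicate 2, 3 or 4 (adjusted p = 0.0753, 0.0906 and 0.0817), without miR-21-KD replicate 1, 3 or 4 (0.0798, 0.0692 and 0.118) and with no count filter (0.0609). That of Wnt2 was lost without VC replicate 1, 2 or 3 (0.0534, 0.101 and 0.101), without miR-21-KD replicate 1, 3 or 4 (0.0886, 0.106 and 0.0729) and with limma-voom (0.0561). Over all alternatives the adjusted p ran from 0.00800 to 0.181 for Wnt4 and from 0.00428 to 0.186 for Wnt2.

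Of the 10 tested ligands 8 (80%, against 39.1% of all tested genes) therefore passed, 4 in each direction (40%, against 19.6% higher and 19.5% lower), and Wnt5b and Wnt11 did not. The replicate block gave 9 ligands, 6 higher and 3 lower, where the background was 45.1% of genes in all, 23% higher and 22.1% lower. Wnt5b, a relative of Wnt5a, had 4.28, 2.15, 2.76 and 1.88 CPM in VC and 5.58, 2.75, 6.25 and 5.87 CPM in miR-21-KD tumours (0.88 ± 0.34, adjusted p = 0.0697), and Wnt11, another ligand of the non-canonical branch, had a log2 fold change of 0.93 ± 0.34 (adjusted p = 0.0559). Both passed with the replicate number as a block (adjusted p = 0.0439 and 0.0228), without VC replicate 1 (0.0309 and 0.0439) and without miR-21-KD replicate 2 (0.0199 and 0.0126). Over all alternatives the adjusted p ran from 0.00726 to 0.384 for Wnt5b and from 0.00992 to 0.324 for Wnt11. Wnt5b overlaps Fbxl14 by 4219 bp, whose log2 fold change was 0.0064. The other 9 ligands were too low to test. Wnt6 had 67 counts over all 8 tumours, Wnt16 48, Wnt7a 28, Wnt9b 11, Wnt1 8, Wnt3 3 and Wnt8a 1, while Wnt3a and Wnt8b had 0 in every tumour. Wnt1, the mammary oncogene, thus reached at most 3 counts in a tumour, at the limit that a count of 0 allows.

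When levels were put per length (CPM per kb of exon), the make-up of the ligand transcripts differed between the groups. Wnt7b held 73.5%, 85.4%, 80.1% and 81.3% of the summed ligand level in VC replicates 1 to 4 and 14.2%, 60.7%, 43.4% and 33.7% in miR-21-KD replicates 1 to 4. The highest share in a miR-21-KD tumour was therefore below the lowest in a VC tumour. The share of Wnt5a rose from between 0.932% and 2.19% to between 7.21% and 16.4%, that of Wnt2b from 0.670% to 1.45% up to 5.91% to 12.4%, and that of Wnt4 from 0.344% to 3.43% up to 5.41% to 18.1%. Wnt10a kept a share of 4.83% to 8.41%, within its VC range of 4.40% to 10.0%, as it fell along with the whole. The summed ligand level was 69.2, 111, 102 and 77.6 CPM per kb in VC and 25.1, 40.5, 36.6 and 31.7 CPM per kb in miR-21-KD tumours. These shares restate the levels above and carry no test of their own.

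**Figure D2:**
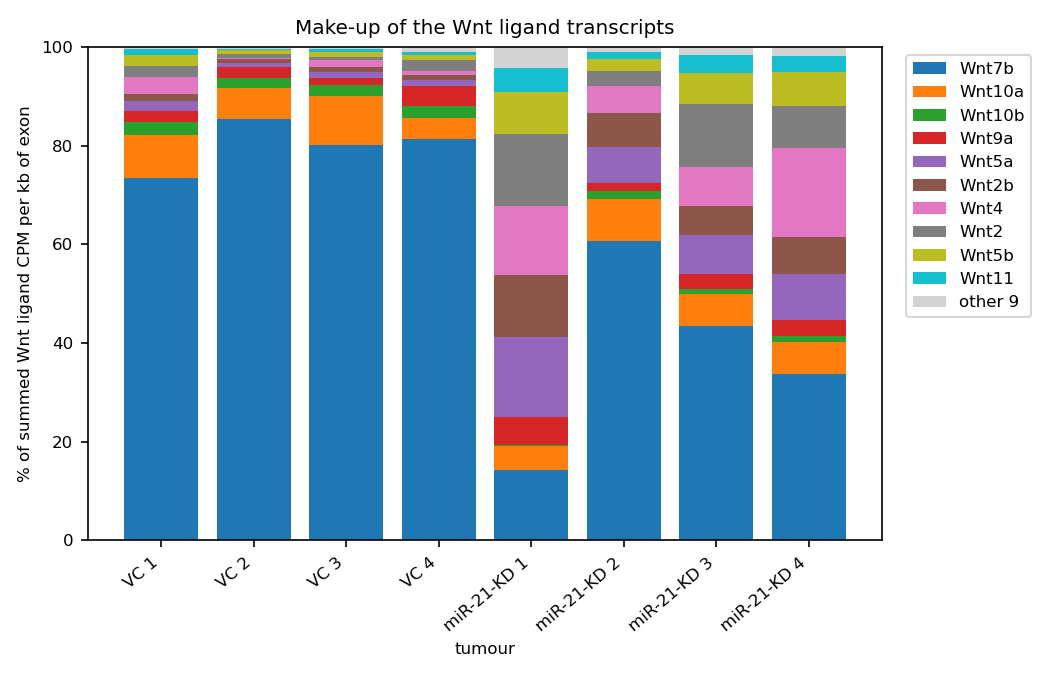
Percent of the summed Wnt ligand level (CPM per kb of exon, y axis) held by each ligand in each tumour (x axis), with 9 low ligands joined as other. Wnt7b fills 73.5% to 85.4% of every VC bar and 14.2% to 60.7% of the miR-21-KD bars.

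The receptors split in the same way, with falls in Fzd6 and Fzd5 and rises in Fzd1, Fzd8, Fzd10 and Lrp6. Fzd6, a Frizzled of planar polarity in skin and hair, fell from 55.9, 76.5, 62.8 and 52.2 CPM in VC to 17.6, 31.9, 27.5 and 23.4 CPM in miR-21-KD tumours (log2 fold change -1.30 ± 0.19, adjusted p = 0.00571). Fzd5, a receptor for canonical ligands and for Wnt5a, fell from 17.5, 24.4, 18.6 and 21.2 CPM to 14.1, 12.7, 12.8 and 11.3 CPM (-0.68 ± 0.14, adjusted p = 0.00935). Every miR-21-KD tumour was below every VC tumour in both genes, and both calls held without any 1 tumour.

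Fzd1, a broadly expressed Frizzled, went from 31.1, 17.0, 22.5 and 39.4 CPM to 81.6, 40.2, 53.6 and 62.7 CPM (1.11 ± 0.29, adjusted p = 0.0189). Fzd8 went from 2.21, 1.28, 1.18 and 1.39 CPM to 6.39, 2.12, 5.28 and 5.71 CPM (1.68 ± 0.38, adjusted p = 0.0122). The Fzd1 groups were apart by a small gap, and miR-21-KD replicate 2 lay inside the VC range for Fzd8. The Fzd1 call was lost without VC replicate 3 (adjusted p = 0.0579, with a range of 0.00103 to 0.136 over all alternatives). Fzd10, a Frizzled that is low in most adult tissues, had 0.664, 0.319, 0.315 and 0.654 CPM in VC and 1.78, 0.786, 3.33 and 2.66 CPM in miR-21-KD tumours (2.11 ± 0.49, adjusted p = 0.0138). It passed the count filter through the miR-21-KD tumours alone, so that its call leans on the group in which it is high. Fzd10os next to it was too low to test, with 58 counts in all, and was higher in every miR-21-KD tumour (0.727 to 1.14 CPM) than in any VC tumour (0 to 0.369 CPM). The annotated spans of these neighbours do not overlap.

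Of the co-receptors Lrp5 and Lrp6, which act beside the Frizzled receptors, Lrp6 rose and Lrp5 did not pass. Lrp6 rose from 87.3, 83.4, 72.3 and 65.5 CPM to 128, 99.6, 107 and 102 CPM (0.50 ± 0.12, adjusted p = 0.0149), with no overlap. Lrp5 had 137, 157, 152 and 131 CPM in VC and 77.9, 126, 131 and 95.8 CPM in miR-21-KD tumours (-0.42 ± 0.16, adjusted p = 0.0688), so that miR-21-KD replicate 3 lay just under the lowest VC tumour. The Lrp6 call was lost without VC replicate 3 (adjusted p = 0.0501, with a range of 0.00133 to 1 over all alternatives, the last for a change above 1.5-fold). Lrp5 passed with the replicate block (0.0223) and without miR-21-KD replicate 2 (0.0403), and its range was 0.0223 to 1. Whether the changes of Lrp5 and Lrp6 differ from each other was not tested.

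The other Frizzled genes did not pass. Fzd7, the Frizzled with the highest mean level per length (17.9 CPM per kb in VC and 15.8 in the miR-21-KD tumours), had a log2 fold change of -0.18 ± 0.13 (adjusted p = 0.277), and Fzd2, at 5.40 and 5.38 CPM per kb, had -0.0050 ± 0.16 (adjusted p = 0.983). Fzd3, which carries a pair of the seed matches printed above, was at -0.50 ± 0.24 (adjusted p = 0.124), a negative value although its groups did not overlap. Fzd4, the Norrin receptor of vessels, was at 0.72 ± 0.26 (adjusted p = 0.0525), and passed with the replicate block (0.0290), without VC replicate 1 (0.0206) and without miR-21-KD replicate 2 (0.0200), in a range of 0.00516 to 0.498 over all alternatives. Fzd9 had 45 counts over all tumours and was not tested. In all, 6 of 11 tested receptors (54.5%, against 39.1% of all tested genes) passed, 4 higher (36.4%, against 19.6%) and 2 lower (18.2%, near the 19.5% of all genes). The replicate block gave 8 receptors, 5 higher and 3 lower, where the background was 45.1% of genes in all, 23% higher and 22.1% lower. By level per length, Fzd7 was followed in VC tumours by Fzd6 (12.8 CPM per kb), Fzd1 (6.55) and Fzd2 (5.40), and in miR-21-KD tumours by Fzd1 (14.2), Fzd2 (5.38) and Fzd6 (5.21). In the miR-21-KD tumours Fzd7 was at 71.7 ± 11.2 and Fzd1 at 59.5 ± 17.4 CPM (SD, n = 4 each). Given the spread of each, Fzd7 and Fzd1 can hardly be ranked in these tumours, and neither can Fzd2 and Fzd6.

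**Figure D3:**
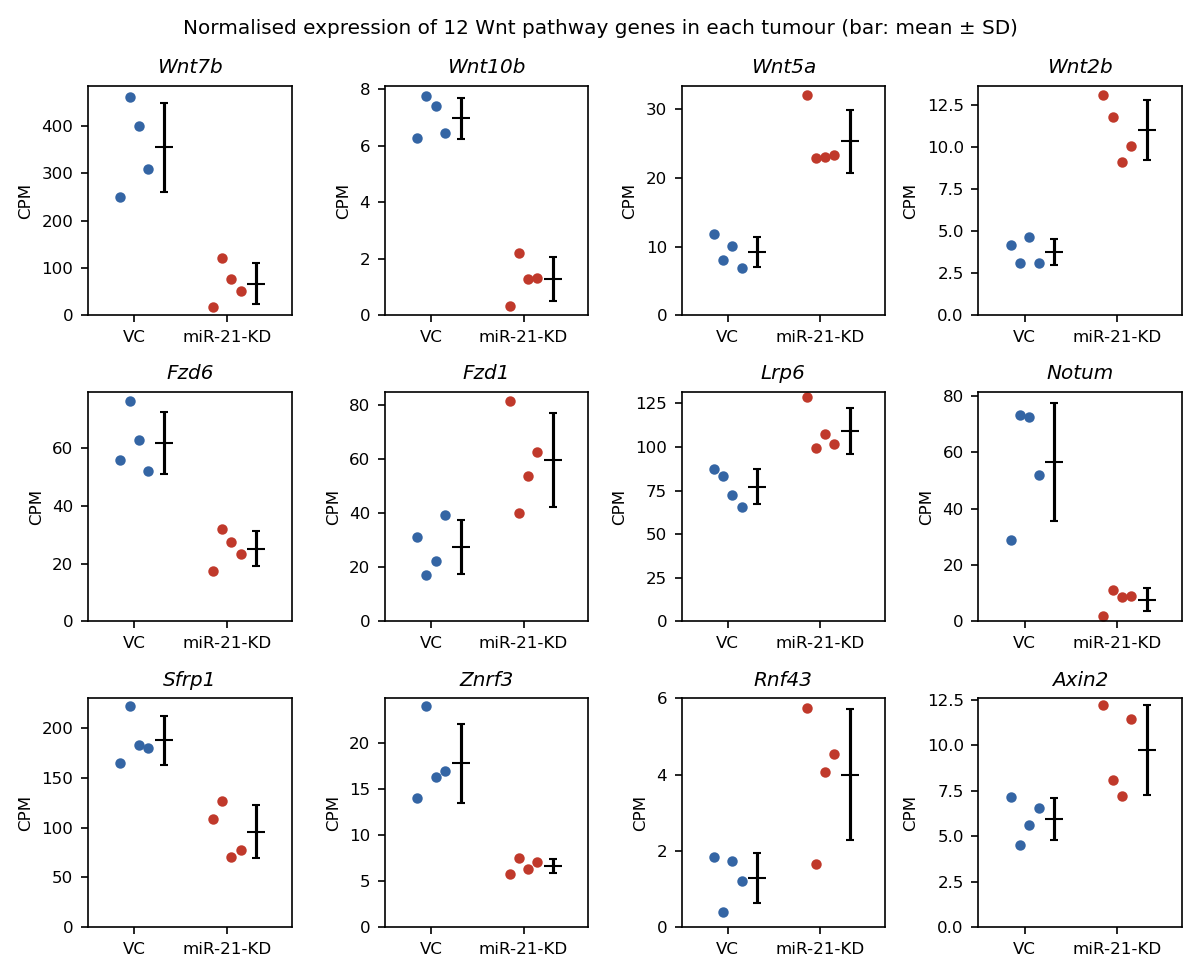
Normalised level (CPM, y axis from 0) of 12 Wnt pathway genes in each VC (blue) and miR-21-KD (red) tumour, in replicate order within a group, with the mean and SD beside the points. The groups are apart in every panel but that of Rnf43, where miR-21-KD replicate 2 at 1.65 CPM lies among the VC tumours.

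Secreted inhibitors held the largest fall of all tested members. Notum (Entrez 77583, chr11:120653788-120661193), a carboxylesterase that strips the lipid from Wnt proteins and is itself a common target of the canonical pathway, had 29.0, 73.2, 72.4 and 52.0 CPM in VC and 1.94, 11.2, 8.60 and 8.92 CPM in miR-21-KD tumours. The means were 56.7 ± 20.9 and 7.68 ± 4.00 CPM (SD, n = 4 each), with a log2 fold change of -2.88 ± 0.49 and an adjusted p of 0.00664 that stayed past the threshold under every alternative. Sfrp1, a soluble Frizzled-like decoy, fell from 165, 222, 182 and 179.7 CPM to 109, 127, 70.8 and 77.1 CPM (-0.97 ± 0.19, adjusted p = 0.00933). Dkk2, a ligand of Lrp5 and Lrp6 that blocks or modulates signalling, rose from 1.47, 1.12, 0.867 and 1.88 CPM to 4.20, 2.28, 3.08 and 2.19 CPM (1.13 ± 0.32, adjusted p = 0.0256). Notum and Dkk2 differ greatly in abundance, since Dkk2 reached at most 4.20 CPM. Its call was lost without VC replicate 2 or 3 (0.0715 and 0.0731) and without miR-21-KD replicate 1 or 3 (0.0666 and 0.0605), in a range of 0.00428 to 0.162 over all alternatives.

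The remaining tested inhibitors had positive log2 fold changes that did not pass, and they varied widely among tumours. Sfrp2, a decoy known from fibroblasts, had 40.9, 10.8, 25.3 and 33.4 CPM in VC and 106, 56.7, 28.9 and 52.8 CPM in miR-21-KD tumours (1.15 ± 0.46, adjusted p = 0.0756). Dkk3, a secreted relative of the Dickkopf inhibitors, was at 1.22 ± 0.44 (adjusted p = 0.0543), and Sfrp4 at 0.92 ± 0.48 (adjusted p = 0.154). With the replicate number as a block these 3 passed, with adjusted p of 0.0425, 0.0249 and 0.00276 in the same order. Dkk3 also passed without miR-21-KD replicate 2 or 3 (0.0410 and 0.0439), and Sfrp4 without VC replicate 1 (0.0494). The range over all alternatives was 0.0254 to 0.316 for Sfrp2, 0.0132 to 0.247 for Dkk3 and 0.00276 to 0.545 for Sfrp4. Wif1, which binds Wnt proteins directly, was at 1.01 ± 0.65 (adjusted p = 0.240) and Sfrp5 at 0.17 ± 0.66 (adjusted p = 0.854), while Dkk1, the founding Dickkopf inhibitor, had 0 counts in every tumour. Of 8 tested inhibitors 3 (37.5%) passed without a block, 1 higher and 2 lower, which is near the background of 39.1%. The replicate block gave 6 of 8, with 4 higher and 2 lower, where the background was 45.1% of genes in all, 23% higher and 22.1% lower.

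Rnf43 and Znrf3 are paired transmembrane ubiquitin ligases that remove Frizzled receptors from the cell surface, and they moved in opposite directions. Znrf3 fell from 14.0, 23.9, 16.2 and 16.9 CPM in VC to 5.82, 7.47, 6.33 and 7.12 CPM in miR-21-KD tumours (log2 fold change -1.41 ± 0.19, adjusted p = 0.00501), a fall that held under every alternative. Rnf43 rose from 1.84, 0.399, 1.73 and 1.23 CPM to 5.74, 1.65, 4.06 and 4.54 CPM (1.61 ± 0.50, adjusted p = 0.0332). Znrf3 was nearly constant among the miR-21-KD tumours, whereas Rnf43 was low throughout and overlapped between groups. The Rnf43 call was lost without VC replicate 2, 3 or 4 (0.0602, 0.0616 and 0.0592) and without miR-21-KD replicate 1, 3 or 4 (0.0832, 0.0691 and 0.0785), and its adjusted p ranged from 0.00413 to 0.148. Of the receptors for R-spondins, which restrain both ligases, Lgr4 had 17.2, 18.1, 14.9 and 14.4 CPM in VC and 31.7, 13.5, 22.3 and 24.8 CPM in miR-21-KD tumours (0.52 ± 0.23, adjusted p = 0.108), with replicate 2 below every VC tumour. Without that replicate Lgr4 passed (0.00856, in a range of 0.00856 to 0.948). Lgr5, a stem cell marker of several epithelia, was near 1 CPM in both groups (0.46 ± 0.38, adjusted p = 0.354).

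Inside the cell, Cdk14 fell most. Cdk14 (chr5:4803384-5380251), a membrane-bound kinase that with cyclin Y phosphorylates Lrp6, had 65.1, 96.6, 80.1 and 70.2 CPM in VC and 23.5, 29.2, 21.3 and 18.0 CPM in miR-21-KD tumours (-1.76 ± 0.18, adjusted p = 0.00501). The ranges were far apart, but this gene was on the list with that change known. Its cyclin partners did not pass, as Ccny was at 0.22 ± 0.09 (adjusted p = 0.0694) and Ccnyl1 at 0.0039 ± 0.11 (adjusted p = 0.980). Ccny passed without miR-21-KD replicate 2 (0.00988, in a range of 0.00915 to 1). It also passed with upper-quartile scaling (0.0467), 10 counts in every tumour (0.0417), DESeq2 (0.0396) and limma-voom with quality weights (0.00915).

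Apc and Axin2, both scaffolds of the destruction complex, rose. Apc went from 67.5, 53.7, 52.6 and 46.4 CPM to 92.1, 74.3, 84.2 and 73.5 CPM (0.56 ± 0.13, adjusted p = 0.0134). Axin2, which is also the most widely used readout of canonical signalling, went from 7.15, 4.55, 5.60 and 6.54 CPM to 12.2, 8.10, 7.22 and 11.4 CPM (0.71 ± 0.23, adjusted p = 0.0385). The groups did not overlap in either, but only just in Axin2. The Axin2 call was lost without VC replicate 2, 3 or 4 (0.0994, 0.0968 and 0.0501), without miR-21-KD replicate 1 or 4 (0.0982 and 0.100) and with no count filter (0.0524), in a range of 0.0118 to 0.483. Notum and Axin2, both known canonical targets, thus moved in opposite directions in the same tumours.

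Ctnnb1, which encodes beta-catenin, had the highest level per length of all members (269.6 CPM per kb in VC and 217 in the miR-21-KD tumours). It had 1445, 1514, 1443 and 1197 CPM in VC and 1094, 1095, 1235 and 1086 CPM in miR-21-KD tumours (-0.31 ± 0.11, adjusted p = 0.0559). VC replicate 4 was the one that overlapped the miR-21-KD tumours, and without it Ctnnb1 passed (0.0289). It also passed with scaling by library size (0.0408), DESeq2 (0.0139) and limma-voom (0.0477), in a range of 0.0139 to 1 over all alternatives. Axin1 was at -0.13 ± 0.09 (adjusted p = 0.259). The feedback inhibitors Nkd1 and Nkd2 were at 0.81 ± 0.48 (adjusted p = 0.199) and 0.51 ± 0.37 (adjusted p = 0.284), and Nkd2, a carrier of the seed match, passed without miR-21-KD replicate 2 (0.0285, in a range of 0.0285 to 0.978). Of the 7 intracellular genes 3 (42.9%) passed, 2 higher and 1 lower, which is near the background of 39.1%.

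Among the TCF/LEF factors Lef1 alone passed. Lef1, a DNA-binding partner of beta-catenin that T cells also express, had 1.55, 0.957, 0.946 and 2.62 CPM in VC and 4.69, 3.07, 2.03 and 4.85 CPM in miR-21-KD tumours (1.27 ± 0.41, adjusted p = 0.0395). Tcf7, a factor of T cells with a seed match in its 3′ UTR, was at 0.66 ± 0.30 (adjusted p = 0.107). Tcf7l2, a factor common in epithelia, had 20.1, 19.9, 17.2 and 23.6 CPM in VC and 28.9, 22.1, 23.1 and 27.0 CPM in miR-21-KD tumours (0.33 ± 0.14, adjusted p = 0.0837), and Tcf7l1, mainly a repressor, was at 0.16 ± 0.15 (adjusted p = 0.439). VC replicate 4 was the highest VC tumour for Lef1 and Tcf7l2 and miR-21-KD replicate 3 the lowest of its group for Lef1. The Lef1 call was lost without VC replicate 1, 2 or 3 (0.0709, 0.101 and 0.105) and without miR-21-KD replicate 1 or 4 (0.0936 and 0.103), in a range of 0.00800 to 0.192. Tcf7 passed with the replicate block (0.0461) and without VC replicate 4 (0.0265, in a range of 0.0265 to 0.654), and Tcf7l2 without VC replicate 4 (0.0469, in a range of 0.0196 to 1). The summed level of 10 T cell markers was 51.6 to 174 CPM in VC and 161 to 335 CPM in miR-21-KD tumours, with 7 of the 10 past the test and all 7 higher (70%, against 19.6% of all tested genes). VC replicate 4 was the highest of its group and miR-21-KD replicate 3 the lowest of its own for these markers too, and their part in the Lef1 and Tcf7 values was not tested. Tcf7 overlaps Skp1 by 332 bp, and Skp1 was at -0.43.

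Among the miR-21-KD tumours replicates 1 and 2 were at opposite ends. Of the 10 members that fell, replicate 1 had the lowest level of its group in 6 and replicate 2 the highest in 8. Of the 13 that rose, replicate 1 had the highest level in 9 and replicate 2 the lowest in 8. The same tumours were at the ends over all tested genes, since on the first principal component (67.5% of the variance) the VC tumours had positive scores and the miR-21-KD tumours negative ones, with replicate 2 nearest to 0 (-0.047) and replicate 1 farthest (-0.505). Without miR-21-KD replicate 2, 29 members passed, against 23 with all tumours, and without VC replicate 3 the count was 15, of which 5 were higher and 10 lower. The calls over all genes moved too, to 46.8% of those tested without miR-21-KD replicate 2 and to 20.1% without VC replicate 3 (9.9% higher and 10.2% lower), against 39.1%.

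**Figure D4:**
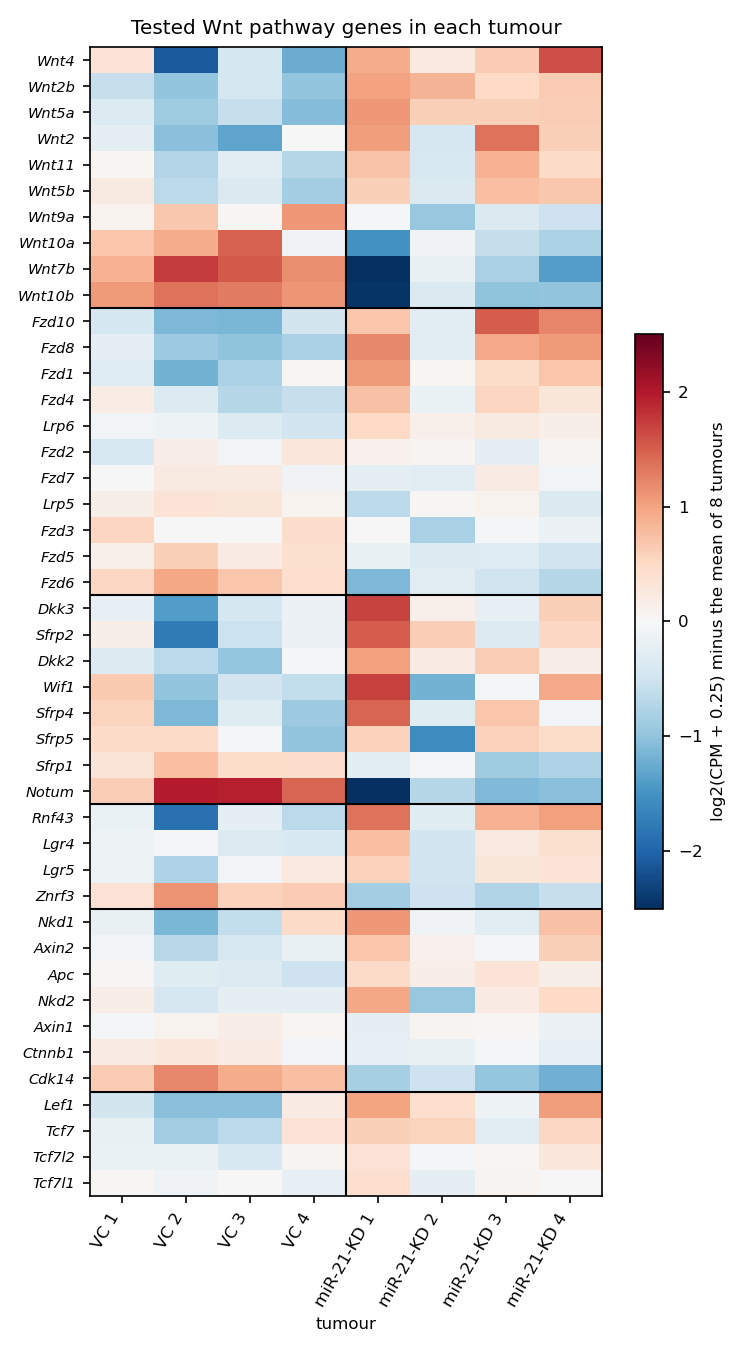
Level of the 44 tested members in each tumour, as log2(CPM + 0.25) minus the mean of the 8 tumours (red above, blue below), grouped by role from ligands at the top to TCF/LEF factors at the bottom. Replicate 1 of miR-21-KD shows stronger colours than replicate 2 in most rows, in falls such as Wnt7b (17.5 and 121 CPM) and in rises such as Fzd1 (81.6 and 40.2 CPM).

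Summed levels of cell type markers moved with the same contrast. The background for the marker counts that follow was 19.6% of all tested genes higher and 19.5% lower. Summed fibroblast markers (10 genes) were at 3593 to 9105 CPM in VC and 11313 to 25163 CPM in miR-21-KD tumours, with 8 of 10 higher past the test, and adipocyte markers (8 genes) at 107 to 424 and 606 to 1738 CPM, with 8 of 8 higher. Macrophage markers were at 2654 to 3884 and 5383 to 8418 CPM, with 7 of 8 higher. Basal or myoepithelial markers were at 129 to 234 and 239.8 to 599 CPM, with 6 of 8 higher. Endothelial markers overlapped, at 433 to 756 and 655 to 936 CPM, with 2 of 8 (25%) higher, which is near the background. Skeletal muscle markers stayed at or below 10.7 CPM in every tumour. Of the 2 that were tested, Myh1 was lower (-2.47, adjusted p = 0.0209, and 0.0114 with the replicate block) and Mylpf did not pass. In keeping with the label of a mammary carcinoma, epithelial markers were present in every tumour, at 1306 to 2264 CPM in VC and 903 to 2016 CPM in miR-21-KD tumours. Of 9 such markers 7 were higher and 1, Krt18, was lower (-1.15, adjusted p = 0.0374). With the replicate block Krt8 passed as lower too (adjusted p = 0.0413), and the markers past the test were 9 of 10 for T cells, 9 of 10 for fibroblasts and 8 of 8 for basal cells, all higher, and 4 of 8 for endothelial cells, 3 higher and 1 lower. The background with the block was 23% of all tested genes higher and 22.1% lower. No marker of any list was at 0 in all tumours. The fibroblast marker Pdgfra did not pass, at -0.36 (adjusted p = 0.176). Wnt2, Wnt2b, Wnt5a, Fzd1, Sfrp2, Sfrp4 and Dkk3 are genes that fibroblasts can express, and Wnt4 and Lgr4 are known in mammary epithelium. All the genes just named had positive log2 fold changes. Members that fell, such as Wnt7b, Fzd6 and Sfrp1, were not sorted by cell type here, so these names are examples only. The part of these cell types in the values of the Wnt genes was not tested.

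**Figure D5:**
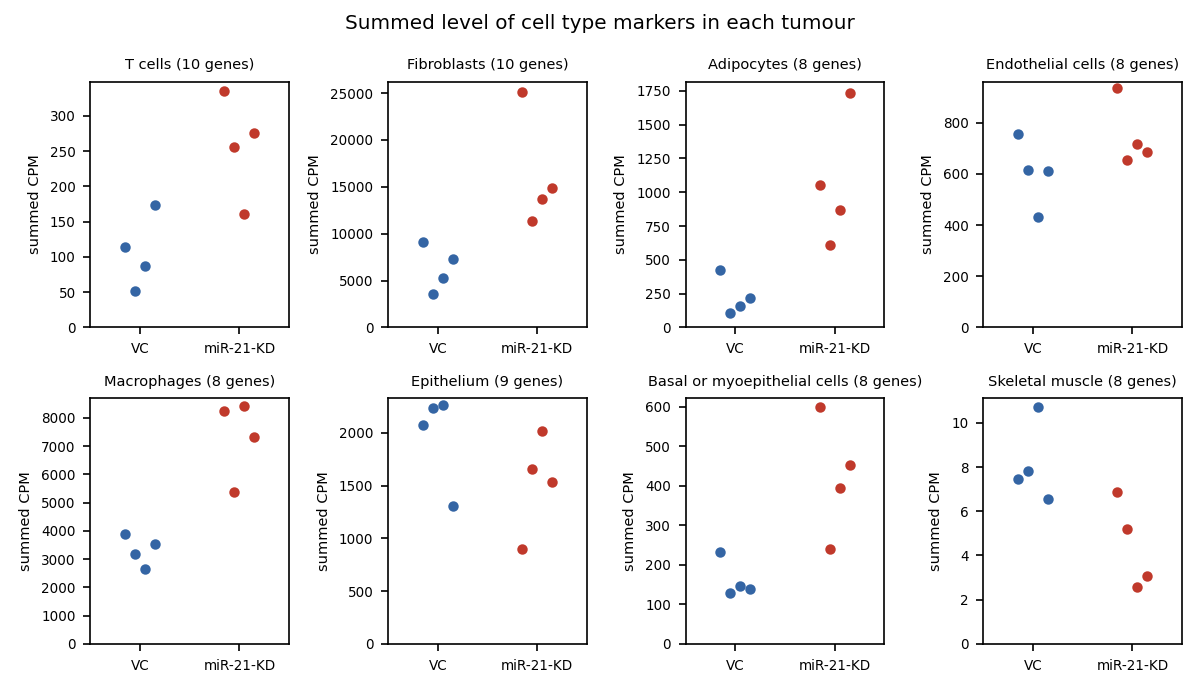
Summed level (CPM, y axis from 0) of 8 lists of cell type markers in each VC (blue) and miR-21-KD (red) tumour. The groups are apart for fibroblasts (up to 9105 CPM in VC, from 11313 CPM in miR-21-KD tumours), adipocytes, macrophages and basal or myoepithelial cells, and overlap for T cells, endothelial cells, epithelium and skeletal muscle.

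Beyond the members, 80 further genes of Wnt secretion, R-spondins, planar polarity and beta-catenin turnover were looked up. Of 71 tested, 34 (47.9%, against 39.1% of all tested genes) passed, 16 higher (22.5%, against 19.6%) and 18 lower (25.4%, against 19.5%), with a median log2 fold change of -0.06. With the replicate block 42 passed, of which 23 were higher and 19 lower, where the background was 45.1%, 23% and 22.1%. Without VC replicate 3 the split was 7 (9.86%) higher and 13 (18.3%) lower, where the background was 9.9% and 10.2%. Wls, the carrier that takes Wnt proteins to the cell surface, fell from 247, 300.1, 259 and 251 CPM to 149, 182, 174 and 162 CPM (-0.66 ± 0.10, adjusted p = 0.00571), while Porcn, the acyltransferase that lipidates them, was at 0.10 ± 0.15 (adjusted p = 0.622). Ror2, a receptor for Wnt5a, rose along with it, from 3.69 ± 0.954 to 9.16 ± 1.90 CPM (SD, n = 4 each; 1.31 ± 0.25, adjusted p = 0.00780).

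The smallest adjusted p among rises were those of Dkkl1, a Dickkopf-like gene (0.530 to 4.93 CPM on average, log2 fold change 3.20 ± 0.42, adjusted p = 0.00501), of Celsr3, a planar polarity cadherin (1.48 ± 0.27, adjusted p = 0.00739), and of Ror2. Among falls they were those of Bcl9, a co-activator of beta-catenin (-1.08 ± 0.16, adjusted p = 0.00563), Wls, and Vangl1, a core planar polarity gene (-1.17 ± 0.19, adjusted p = 0.00593). Frat1 also rose (1.63 ± 0.39, adjusted p = 0.0144). Dkkl1 and Frat1 each reached the minimum of the count filter in 4 miR-21-KD tumours and 1 VC tumour, so that they passed through the group in which they are high. Planar polarity genes stood among both the rises and the falls. The R-spondins were low. Rspo1 was at -0.49 ± 0.81 (adjusted p = 0.650) and Rspo3 at -0.42 ± 0.23 (adjusted p = 0.167), while Rspo2 and Rspo4 were not tested. Frzb, a further Sfrp-like decoy, was at 0.15 ± 0.51 (adjusted p = 0.829).

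Genes often cited as targets of beta-catenin showed no common direction with all 8 tumours. Of 38, 30 were tested and 16 (53.3%, against 39.1% of all tested genes) passed, 8 higher and 8 lower (26.7% each, against 19.6% and 19.5%), with a median log2 fold change of -0.011, and 17 (56.7%, against 45.1% of all tested genes) passed with the replicate block, 8 higher and 9 lower, against 23% and 22.1%. Plaur, the urokinase receptor, rose from 127 ± 12.2 to 195 ± 14.9 CPM (0.62 ± 0.10, adjusted p = 0.00571), as did Ascl2, a stem cell factor of the intestine (2.54 ± 0.42, adjusted p = 0.00629), and Id2, an inhibitor of helix-loop-helix factors (1.02 ± 0.17, adjusted p = 0.00656). Tnfrsf19, a receptor of the TNF family, fell from 90.4 ± 38.1 to 13.6 ± 5.27 CPM (-2.74 ± 0.37, adjusted p = 0.00520), with Ccn5, a matricellular protein (-1.54 ± 0.22, adjusted p = 0.00558), and Birc5, the cell division protein survivin (-1.38 ± 0.28, adjusted p = 0.00988). Msx2 also rose (3.95 ± 0.79, adjusted p = 0.00922). Ascl2 and Msx2 each reached the minimum of the count filter in 4 miR-21-KD tumours and 1 VC tumour, so that they too passed through the group in which they are high. With 10 counts required in every tumour 25 targets were tested. Of these 5 (20%) were higher and 8 (32%) lower, where the background was 20.9% and 18.2%. Without VC replicate 2 or 3, or without miR-21-KD replicate 3 or 4, the split was 8 (26.7%) higher and 4 (13.3%) lower. The background of these fits was 9.9% to 13.6% higher and 10.2% to 12.2% lower. Most of the target genes are also controlled by other pathways, so that the counts describe the list only.

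A core TCF/LEF motif, CTTTGAT or its complement ATCAAAG, was sought on both strands in the RefSeq promoter windows of the members (250 bases before to 50 after a start, GRCm38.p6). It lay in 2 of 37 member genes with a window (5.41%), against 1160 of 27025 genes (4.29%). The stretches are printed on the strand of the gene with the motif in capitals, because both belong to the non-canonical ligands whose values lay just short of the threshold.
Wnt11: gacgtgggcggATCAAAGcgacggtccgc
Wnt5b: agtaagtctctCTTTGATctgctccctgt
The first is at chr7:98835050-98835078 on the plus strand and the second at chr6:119449440-119449468 on the minus strand. The promoters of the 23 members that passed held no such letters in these windows where a window was given, which says nothing of the factors themselves.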

How the data were processed

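Total RNA of 8 whole tumours was sequenced, and the authors deposited a table of raw read counts, not normalized, with genes named by Entrez identifier. The submitters' notes name Subread, featureCounts, edgeR, limma and the build mm10, without versions or roles, and strand use and annotation are not given in the sources used here. RefSeq symbols (GRCm38.p6) matched 25275 of 27179 identifiers. Lengths per gene are the union of GENCODE vM21 exons, which may differ from the annotation counted.

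Counts were filtered with filterByExpr (minimum count 10, total 15, by group), scaled with TMM and tested with the robust quasi-likelihood test of edgeR 4.0.16 in R 4.3.3, two-sided, miR-21-KD against VC, without a block. P-values were adjusted by Benjamini-Hochberg over 14382 genes at 0.05. The filter removed 12797 genes and kept 99.9% of counts. Standard errors were derived from each estimate and its F statistic. The procedure was tested on simulated data.

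The members and gene lists were chosen with earlier results of these data known. Named genes are all members past the threshold, in each role the most abundant member that did not pass, for other pathway and target genes the 3 smallest adjusted p in each direction, and a few partners whatever their values. The remaining tested members are also given with their fold changes.

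Tumours carry numbers 1 to 4 in both groups. After removal of group means, same-numbered tumours correlated at 0.272, 0.421, 0.175 and 0.376 across genes, while the 12 other combinations had a mean of -0.105. Removal of the means nearly fixes that last value once the 4 are given, so it is no separate evidence of pairing. Same-numbered tumours were treated as paired in an alternative although the labels name no pairing. Blocked values are given where they change the call of a member or the count of a list. Other alternatives were RLE, library size and upper-quartile scaling, other count filters, DESeq2 1.42.0, limma-voom (limma 3.58.1) with and without quality weights, stricter thresholds and each tumour left out.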

Additional observations from a re-analysis of the deposited data

Results flagged for a closer look

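Among the 44 tested members in each group of 4 tumours, 88 sets of values in all, 5 held a tumour that stood apart from the other 3 (a gap to the nearest tumour above 0.829 of the whole range). Chance gives about 1 such set in 20, so that 5 is near what chance gives. All 5 were in the miR-21-KD group. For Wnt5a replicate 1 was at 32.1 CPM and the others at 22.9 to 23.2 CPM (gap 0.959 of the range). For Ctnnb1 replicate 3 was at 1235 CPM and the others at 1086 to 1095 CPM (0.935), for Tcf7 it was at 14.0 against 24.5 to 25.6 CPM (0.904), and for Fzd2 at 16.6 against 20.4 to 21.1 CPM (0.850). For Sfrp5 replicate 2 was at 0.0786 CPM, a single count, and the others at 1.10 to 1.22 CPM (0.893).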

How the results depend on the processing

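Of 23 members past the threshold, 7 kept their call under every alternative (Znrf3, Notum, Wnt5a, Fzd6, Wnt2b, Cdk14 and Wnt10b, the last with 18 alternatives and the others with 19). At an adjusted p of 0.01 the counts fell to 1426 of all genes (9.92%), 9 members (20.5%, 2 higher and 7 lower), 10 other pathway genes (14.1%) and 8 target genes (26.7%). For a change above 1.5-fold they were 542 (3.77%), 8 (18.2%, 2 higher and 6 lower), 5 (7.04%) and 5 (16.7%). The share of higher calls among members was thus 22.2% and 25%, against 56.5%. Without any 1 tumour they ran from 2936 to 6840 for all genes (20.1% to 46.8%) and 15 to 29 for members (34.1% to 65.9%). For other pathway genes they ran from 20 to 39 (28.2% to 54.9%) and for targets from 12 to 19 (40% to 63.3%). The lowest were those without VC replicate 3 for all genes, members and other pathway genes. With the replicate number as a block 30 members passed (20 higher and 10 lower, 66.7% higher), where the background was 45.1%, 23% and 22.1%, and it changed no call of a tested member beyond the 9 given. Other scalings gave 23 or 24 members, DESeq2 29 and quality weights 30, where DESeq2 called 45.5% and quality weights 56.9% of all genes.

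Values near 0 changed sign. Fzd2 (-0.0050) went to 0.015 with RLE scaling, 0.039 with upper-quartile scaling, 0.047 with 10 counts in every tumour, 0.015 with DESeq2, 0.018 with limma-voom and 0.0087 with the replicate block, and ran from -0.12 to 0.090 without 1 tumour. Ccnyl1 (0.0039) went to -0.022 with library size scaling, -0.028 with no filter and -0.021 with quality weights, and ran from -0.036 to 0.037 without 1 tumour. Sfrp5 (0.17) went to -0.12 with limma-voom. Without 1 tumour it ran from -0.13 to 0.55, Rspo1 (-0.49) from -1.48 to 0.083, the highest without VC replicate 1, and Frzb (0.15) from -0.10 to 0.92, the lowest without VC replicate 2. None of these passed, and the cause was not tested. The depth limits Wnt10b, Fzd10, Rnf43, Lgr5, Nkd1 and Sfrp5, which had fewer than 10 counts in at least 1 tumour.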
